A study of Mus musculus with 5 samples.

Results

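The genes described here are the 49 components of the DNA replication machinery and of S phase listed by role below, of 20583 gene symbols in the deposited table. They were chosen by name, but with earlier results of these data known. Each gene is represented by its transcript row with the highest mean count, and all 49 were found and passed the filter on low counts. The samples are macrophage cultures, grown from bone marrow by adding M-CSF, a growth factor of the monocyte lineage. The dose was 25 ng/ml for 7 days, with marrow of mice 7 to 8 weeks old on a C57BL/6 background. Messenger RNA was measured in 5 libraries, 3 of genotype wild type (replicates 1, 2 and 3) and 2 of genotype NICcA (replicates 2 and 3). NICcA is not spelled out in the labels, which name neither the allele nor what drives it. Elsewhere it is a name for a conditional transgene of the Notch intracellular domain. Whether the libraries of a genotype are separate mice or separate cultures is also not stated, and a p-value here therefore speaks only of the spread over these 5 libraries, which may be technical.

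Before a cell copies its DNA, the origin recognition complex marks the sites where copying can start, and Cdc6 and Cdt1 load the ring-shaped Mcm2 to Mcm7 helicase there. The kinase Cdc7 with Dbf4, together with cyclin-dependent kinases, then turns the helicase on by bringing in Cdc45 and the GINS complex. Primase and the replicative polymerases copy the strands behind it, held by the sliding clamp Pcna, while ribonucleotide reductase, thymidylate synthase and thymidine kinase supply the nucleotides. Many of these genes are switched on at the entry to S phase by E2F transcription factors, which cyclin D and cyclin E kinases release from the retinoblastoma protein. M-CSF is a mitogen as well as a survival factor for macrophages, so bone marrow cultures of this kind divide while they mature.

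E2F factors read a short sequence near the starts of their targets, so the starts of the replication genes were searched for it. Promoter windows of RefSeq on build GRCm38.p6, from 250 bases before to 50 bases after a gene start, were at hand for 41 of the 49 genes. The words searched on both strands were TTTCCCGC, TTTCGCGC, TTTGCCGC and TTTGGCGC. At least 1 of them was in a window of 17 of the 41 genes (41.5%), against 704 of 27025 genes with a window (2.61%). The 27025 are not limited to the 13341 genes tested here, and they were not matched to the 41 in base composition. The CCAAT box, searched as CCAAT on both strands, was in windows of 25 of the 41 genes (61.0%) and of 41.1% of all genes. TTTGAA, the core of the CHR element that is known from promoters of mitotic genes, was in windows of 8 of the 41 (19.5%) and of 20.2% of all genes. The 200 bases before the start are shown for 4 genes that hold an E2F word there and whose stretch overlaps no annotated exon. They are the helicase genes Mcm5 and Mcm6, the replication-linked methylation factor Uhrf1 and the polymerase gene Pola1, and capitals mark the E2F words.
Mcm5, chr8:75109309-75109508, + strand: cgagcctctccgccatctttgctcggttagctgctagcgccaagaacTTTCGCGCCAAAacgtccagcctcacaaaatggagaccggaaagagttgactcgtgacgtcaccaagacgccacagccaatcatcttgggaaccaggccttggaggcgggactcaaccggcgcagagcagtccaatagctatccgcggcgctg
Mcm6, chr1:128359706-128359905, - strand: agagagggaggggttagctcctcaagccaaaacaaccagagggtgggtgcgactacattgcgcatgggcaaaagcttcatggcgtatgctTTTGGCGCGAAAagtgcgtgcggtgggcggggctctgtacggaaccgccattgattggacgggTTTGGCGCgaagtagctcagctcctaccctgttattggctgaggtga
Uhrf1, chr17:56304113-56304312, + strand: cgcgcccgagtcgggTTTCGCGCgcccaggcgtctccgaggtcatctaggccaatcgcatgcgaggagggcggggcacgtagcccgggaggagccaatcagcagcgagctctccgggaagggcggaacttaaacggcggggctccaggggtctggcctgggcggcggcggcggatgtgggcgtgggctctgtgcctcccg
Pola1, chrX:93632156-93632355, - strand: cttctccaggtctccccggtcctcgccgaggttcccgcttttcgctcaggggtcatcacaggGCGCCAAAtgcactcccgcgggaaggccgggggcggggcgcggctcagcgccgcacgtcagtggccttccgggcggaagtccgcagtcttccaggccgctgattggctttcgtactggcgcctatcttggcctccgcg
In Mcm5 the words of both strands overlap in 1 run of capitals, and Mcm6 has such a run and a further word nearer the start. A word is a match of letters and not a measured binding site. The bases after each start were also sought in annotated transcripts of the gene. They were found there for Uhrf1 and Pola1 but not for Mcm5 and Mcm6, whose starts are therefore less certain. Uhrf1 has another window, not shown, whose stretch holds 0 words and overlaps 1 annotated exon. Between NICcA and wild type the median log2 fold change was 0.68 over the genes with a word and 0.57 over the 24 without one. For the CCAAT box the same medians were 0.68 with it and 0.56 without. For TTTGAA they were 0.52 with it and 0.68 without. None of these differences was tested.

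Most replication genes stood higher in the NICcA libraries than in wild type, and they also differed widely among the wild type libraries themselves. The log2 fold change (NICcA over wild type, so that 1 is a doubling) was positive for 46 of 49 genes, with a median of 0.57, against 50.5% of the 13341 genes tested and a median of 0.00 over them. Both NICcA libraries lay above all wild type libraries for 32 of the 49 genes, where 18.3% of all genes tested did so. Both lay below for 1 gene, Orc5, where the share of all genes was 18.5%. No single gene passed the test. In the quasi-likelihood test of edgeR, after Benjamini-Hochberg adjustment over all rows, 0 of 49 had an adjusted p below 0.05, where 0.03% of all genes were called higher and 0% lower. The smallest adjusted p among the 49 was 0.28. At an unadjusted p below 0.05, 19 of the 49 were higher and 0 lower, beside 7.68% and 6.83% of all genes. DESeq2, the other count test, called 4 of the 49 higher and 0 lower, beside 2.05% and 1.9% of all genes. Those 4 were Pold1, Mcm6, Rpa2 and Mcm2, with DESeq2 adjusted p of 0.017, 0.042, 0.045 and 0.049.

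The 5 libraries fell into a graded order rather than into 2 groups. NICcA replicate 2 had the highest value for 37 of the 49 genes (25.7% of all genes tested), and wild type replicate 3 had the lowest for 43 (29.2% of all genes). The full order NICcA 2, NICcA 3, wild type 1, wild type 2, wild type 3, from high to low, was that of 27 of the 49 genes, where 4.8% of all genes showed it. The order wild type 1, 2, 3 from high to low was that of 40 of the 49 genes and of 18.8% of all genes. The median difference of the 49 genes from the wild type mean was -0.41, 0.03 and 0.39 on the log2 scale in wild type replicates 3, 2 and 1 and 0.53 and 0.66 in NICcA replicates 3 and 2. The same median over all genes tested was between -0.01 and 0.01 in each library.

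The spread inside wild type was as large as the difference between the genotypes. Between wild type replicates 1 and 3 the 49 genes differed by a median of 0.82 on the log2 scale (0.00 over all genes), and for 36 of them that gap was wider than their log2 fold change between genotypes (51.5% of all genes tested). The mean of the NICcA libraries lay above wild type replicate 1 by a median of 0.22, and for 38 of the 49 genes it was above (51.7% of all genes). These comparisons of wild type replicate 1 with 3 were chosen after their values were seen. Without wild type replicate 3, the median log2 fold change was 0.40, with 44 of 49 genes positive and 32 of 49 again not overlapping and higher (21.5% of all genes). Without wild type replicate 1 the median was 0.83, and 39 genes were higher at an unadjusted p below 0.05 (11% of all genes). In bulk RNA, more cells in S phase and more RNA per cycling cell cannot be told apart.

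**Figure D1:**
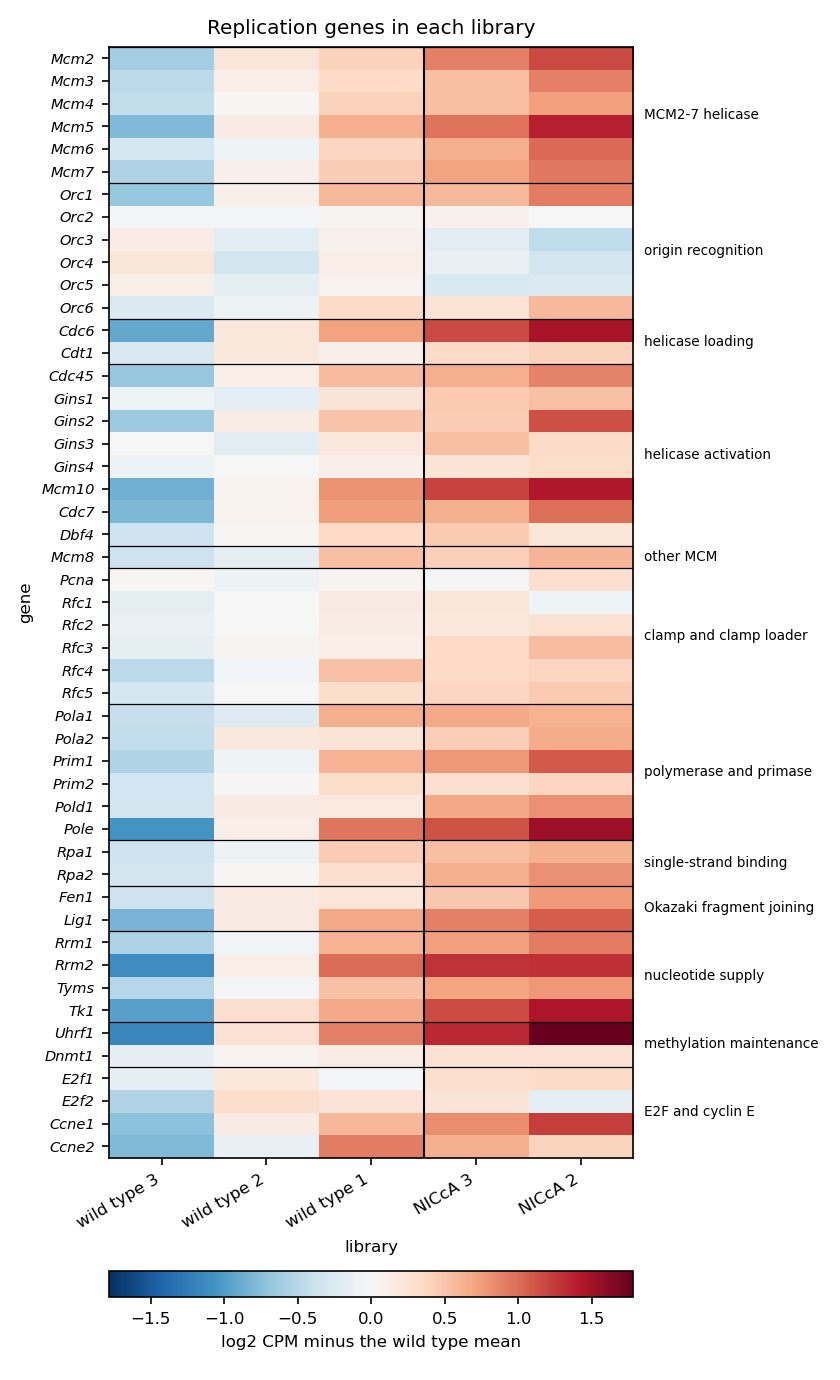
Heat map of the 49 replication genes (rows, grouped by role) in the 5 libraries (columns), coloured by log2 CPM minus the wild type mean of that gene. Wild type replicate 3 is the lowest library for 43 genes and NICcA replicate 2 the highest for 37, while Orc2 to Orc5, Pcna and Rfc1 are among the palest rows.

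Depth had another order. Total counts ran from 57442309 to 76562905 over the libraries, with wild type replicate 1 lowest and wild type replicate 2 highest. Counts of the 49 genes ran from 83 to 10986 per library. Genes at a count of 0 numbered 2364 in wild type replicate 3 and 3260 in NICcA replicate 3, against 4951 to 5254 in the other 3 libraries. On the first principal component of all rows tested (55.9% of the variance) the libraries stood at -66.2 (wild type 3), -22.3 (wild type 2), -1.13 (wild type 1), 27.7 (NICcA 3) and 61.9 (NICcA 2), which is the same order as in the commonest pattern of the replication genes.

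The helicase genes Mcm2 to Mcm7 all followed that order. Values below are CPM, counts per 1000000 counts of the scaled library, always in the order wild type 1, 2 and 3 and then NICcA 2 and 3, and are compared only within a gene. Mcm2 was at 28.8, 25.1 and 14.1 CPM in wild type, against 49.1 and 40.3 CPM in NICcA. Mcm5 was at 33.1, 23.4 and 12.3 CPM in wild type, against 55.4 and 41.5 CPM in NICcA. Both NICcA libraries were above every wild type library, and wild type replicate 3 was the lowest library for both. The log2 fold change was 0.98 with SE 0.30, adjusted p = 0.30 for Mcm2 and 1.08 with SE 0.39, adjusted p = 0.33 for Mcm5. Mcm6 was at 37.9, 27.4 and 23.3 CPM in wild type, against 58.5 and 45.5 CPM in NICcA (log2 fold change 0.82 with SE 0.23, adjusted p = 0.29). Mcm3 was at 44.2, 37.7 and 25.02 CPM in wild type, against 64.9 and 50.5 CPM in NICcA (log2 fold change 0.69 with SE 0.25, adjusted p = 0.33), and Mcm7 at 38.6, 30.1 and 19.2 CPM in wild type, against 54.2 and 46.3 CPM in NICcA (log2 fold change 0.78 with SE 0.28, adjusted p = 0.33). The groups did not overlap for any of these subunits, the NICcA libraries being the higher. Mcm4, the remaining subunit of the ring, had a log2 fold change of 0.59, so that the 6 subunits spanned 0.59 to 1.08. Per length, their mean RPKM over all libraries lay between 7.47 and 13.0. Mcm8, a relative of the ring that acts in recombination repair, was the least abundant of the 49 per length, at a mean of 0.62 RPKM. Its log2 fold change was 0.47 with SE 0.32, adjusted p = 0.49.

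The origin recognition complex was divided. Orc1, the subunit that comes and goes with the cell cycle, was at 3.05, 2.17 and 1.26 CPM in wild type, against 3.86 and 3.04 CPM in NICcA (log2 fold change 0.68 with SE 0.38, adjusted p = 0.43). Orc1 had the wild type order of the helicase genes, but NICcA replicate 3 did not exceed wild type replicate 1, so the groups overlapped. Orc2, a core subunit, was nearly level at 18.05, 17.2 and 16.997 CPM in wild type, against 17.4 and 18.3 CPM in NICcA (log2 fold change 0.04 with SE 0.11, adjusted p = 0.88). Orc3 was at 35.3, 29.03 and 36.8 CPM in wild type, against 24.4 and 29.5 CPM in NICcA (log2 fold change -0.32 with SE 0.15, adjusted p = 0.38) and Orc4 at 18.3, 13.3 and 19.3 CPM in wild type, against 13.4 and 15.3 CPM in NICcA (log2 fold change -0.24 with SE 0.19, adjusted p = 0.56). For both, wild type replicate 3 was the highest library (26.3% of all genes tested) and the groups overlapped. Orc5 was at 10.3, 8.80 and 10.7 CPM in wild type, against 8.29 and 8.16 CPM in NICcA (log2 fold change -0.27 with SE 0.14, adjusted p = 0.41), the only gene of the 49 for which both NICcA libraries lay below all wild type libraries. Orc3, Orc4 and Orc5 were also the only genes of the 49 with a negative log2 fold change. Orc6 had a log2 fold change of 0.40 and overlapped. The counts of Orc4 depend on the row: its other row, with fewer counts, had a log2 fold change of 0.02 where the row used here had -0.24.

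Of the 2 loaders of the helicase, Cdc6 was the more variable. Cdc6, which joins the origin recognition complex and is scarce in resting cells, was at 6.84, 4.74 and 2.19 CPM in wild type, against 11.5 and 9.41 CPM in NICcA (log2 fold change 1.19 with SE 0.44, adjusted p = 0.33). Cdt1, the loader that is degraded once S phase has begun, was at 12.5, 13.3 and 9.62 CPM in wild type, against 15.5 and 14.7 CPM in NICcA (log2 fold change 0.36 with SE 0.17, adjusted p = 0.37). Both genes were higher in the NICcA libraries with no overlap, and wild type replicate 3 was lowest for both. From wild type replicate 1 to 3, Cdc6 differed by 1.63 on the log2 scale and Cdt1 by 0.37.

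Factors that switch the loaded helicase on had log2 fold changes from 0.28 to 1.17, all 8 positive. Cdc45, which rides with the helicase at the fork, was at 12.01, 8.86 and 5.07 CPM in wild type, against 15.03 and 12.8 CPM in NICcA (log2 fold change 0.69 with SE 0.34, adjusted p = 0.39). Mcm10, needed to start unwinding, was at 10.6, 6.36 and 3.32 CPM in wild type, against 16.3 and 14.1 CPM in NICcA (log2 fold change 1.17 with SE 0.44, adjusted p = 0.33). In both genes the NICcA libraries lay above wild type, and wild type replicate 1 stood closer to NICcA replicate 3 than to wild type replicate 3. The GINS subunits Gins1, Gins2, Gins3 and Gins4 had log2 fold changes of 0.49, 0.77, 0.44 and 0.28, with overlap in Gins2 alone. For the kinase Cdc7 and its partner Dbf4 they were 0.69 and 0.32, and both genes overlapped because wild type replicate 1 exceeded a NICcA library.

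The clamp and its loader varied less. Pcna, the sliding clamp, was by far the most abundant of the 49 per length, at 89.5, 77.3 and 85.01 RPKM in wild type, against 111 and 88.5 RPKM in NICcA. In CPM it was at 139, 125 and 138 CPM in wild type, against 164 and 131 CPM in NICcA (log2 fold change 0.14 with SE 0.13, adjusted p = 0.64), with the groups overlapping and wild type replicate 3 in the middle. Without NICcA replicate 2 its log2 fold change was -0.040. Rfc2, a small subunit of the clamp loader, was at 44.9, 40.4 and 37.5 CPM in wild type, against 49.1 and 46.5 CPM in NICcA (log2 fold change 0.22 with SE 0.11, adjusted p = 0.40), and Rfc3 at 6.70, 6.37 and 5.52 CPM in wild type, against 9.02 and 7.92 CPM in NICcA (log2 fold change 0.45 with SE 0.16, adjusted p = 0.32). These loader subunits had non-overlapping groups at small differences. Rfc5 had a log2 fold change of 0.40 without overlap, and Rfc1 and Rfc4 had 0.07 and 0.31 with overlap. The next most abundant genes per length were Fen1 and Rfc2, at means of 27.0 and 23.5 RPKM. The step from Pcna (77.3 to 111 RPKM over libraries) to Fen1 (16.1 to 38.6) was wider than either range, while the ranges of Fen1 and Rfc2 (19.2 to 27.5) overlapped.

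The catalytic subunit genes of both replicative polymerases were higher in NICcA without overlap. Pold1, the catalytic subunit of the lagging-strand polymerase delta, was at 17.6, 17.2 and 12.4 CPM in wild type, against 27.3 and 25.1 CPM in NICcA (log2 fold change 0.74 with SE 0.18, adjusted p = 0.28), and it had the smallest unadjusted p of the 49, at 0.0055. Pole, the catalytic subunit of the leading-strand polymerase epsilon, was at 13.9, 7.74 and 3.41 CPM in wild type, against 20.6 and 15.7 CPM in NICcA (log2 fold change 1.12 with SE 0.52, adjusted p = 0.37). Pole had the steeper range among wild type libraries, a difference of 2.01 on the log2 scale between replicates 1 and 3 against 0.50 for Pold1, and the larger standard error. The primase and polymerase alpha genes Pola1, Pola2, Prim1 and Prim2 had log2 fold changes of 0.57, 0.52, 0.87 and 0.31, with overlap in Pola1 and Prim2. Outside the 49, further subunits of polymerases delta and epsilon were divided. Pold2 and Pole2 were higher without overlap, at log2 fold changes of 0.47 and 0.15. Pold3, Pold4, Pole3 and Pole4 overlapped, at 0.04, 0.20, 0.15 and 0.07.

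The listed genes of single-strand binding, Rpa1 and Rpa2, and of the joining of Okazaki fragments, Fen1 and Lig1, followed the main order. Rpa2, a subunit of replication protein A, was at 17.3, 14.3 and 11.2 CPM in wild type, against 24.8 and 22.03 CPM in NICcA (log2 fold change 0.72 with SE 0.20, adjusted p = 0.29). Fen1, the flap endonuclease that trims Okazaki fragments, was at 69.4, 66.2 and 45.98 CPM in wild type, against 101 and 82.8 CPM in NICcA (log2 fold change 0.60 with SE 0.20, adjusted p = 0.32). Neither gene overlapped between the groups, and wild type replicates 1 and 2 were close to each other in Fen1 while replicate 3 was apart. Rpa1 and the ligase gene Lig1 had log2 fold changes of 0.54 and 0.87, also without overlap. Rpa3, which is outside the list of replication genes, had another order. Its groups overlapped at a log2 fold change of 0.12, with wild type replicate 1 highest and wild type replicate 2 lowest.

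Nucleotide supply genes were among those that varied most. Rrm2, the cell-cycle-regulated subunit of ribonucleotide reductase, was at 34.9, 18.9 and 8.10 CPM in wild type, against 43.2 and 42.6 CPM in NICcA (log2 fold change 1.06 with SE 0.53, adjusted p = 0.39). Tk1, the thymidine kinase of dividing cells, was at 12.2, 9.36 and 3.85 CPM in wild type, against 20.7 and 17.1 CPM in NICcA (log2 fold change 1.16 with SE 0.44, adjusted p = 0.33). The NICcA libraries were highest in both, and wild type replicate 3 was far below the other wild type libraries. For Rrm2 wild type replicates 1 and 3 differed by 2.10 on the log2 scale, the widest gap of the 49. Rrm1 and Tyms, the thymidylate synthase, had log2 fold changes of 0.74 and 0.68 and did not overlap either.

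Uhrf1 and Dnmt1, which copy DNA methylation onto the new strand, differed in size. Uhrf1, which recognises hemimethylated DNA behind the fork, was at 28.4, 18.3 and 6.77 CPM in wild type, against 52.4 and 38.8 CPM in NICcA (log2 fold change 1.36 with SE 0.53, adjusted p = 0.34), the largest log2 fold change of the 49. Dnmt1, the methyltransferase that Uhrf1 recruits, was at 128, 119.9 and 103 CPM in wild type, against 140.4 and 141 CPM in NICcA (log2 fold change 0.27 with SE 0.12, adjusted p = 0.37). Both were higher in NICcA with no overlap, and Uhrf1 was far lower in wild type replicate 3 than in the other wild type libraries.

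The regulators at the head of the pathway differed among themselves. Ccne1, a cyclin that activates Cdk2 at the entry to S phase, was at 12.7, 9.35 and 5.10 CPM in wild type, against 19.95 and 15.1 CPM in NICcA (log2 fold change 0.95 with SE 0.37, adjusted p = 0.34), without overlap. Its relative Ccne2 was at 13.5, 6.56 and 4.17 CPM in wild type, against 9.45 and 11.3 CPM in NICcA (log2 fold change 0.36 with SE 0.47, adjusted p = 0.73), with wild type replicate 1 the highest of the 5 libraries. E2f1 was at 12.996, 15.1 and 11.9 CPM in wild type, against 16.8 and 16.3 CPM in NICcA (log2 fold change 0.31 with SE 0.14, adjusted p = 0.36), with narrow groups that did not overlap. E2f2, also an activating member of the E2F family, was at 50.2, 52.99 and 29.5 CPM in wild type, against 38.2 and 50.3 CPM in NICcA (log2 fold change 0.0013 with SE 0.27, adjusted p = 0.9989), with wild type replicate 2 highest, NICcA replicate 2 below wild type replicates 1 and 2, and the groups overlapping. Without wild type replicate 3 the log2 fold change of E2f2 was -0.22.

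**Figure D2:**
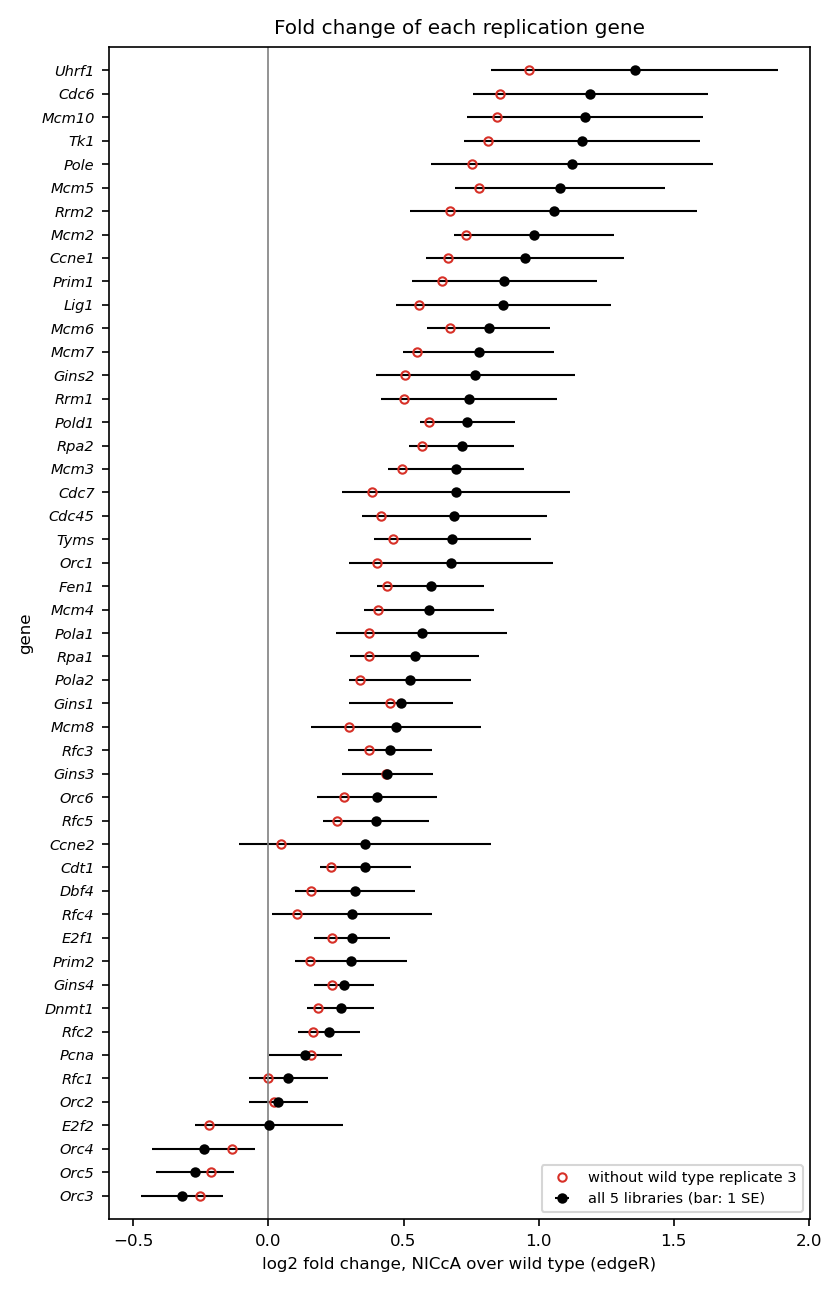
Log2 fold change of NICcA over wild type for each of the 49 genes from edgeR with all 5 libraries (filled points, bars of 1 SE) and without wild type replicate 3 (open points). Uhrf1 lies at the top at 1.36 and Orc3 at the bottom at -0.32, and for most genes the open point lies nearer to 0.

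**Figure D3:**
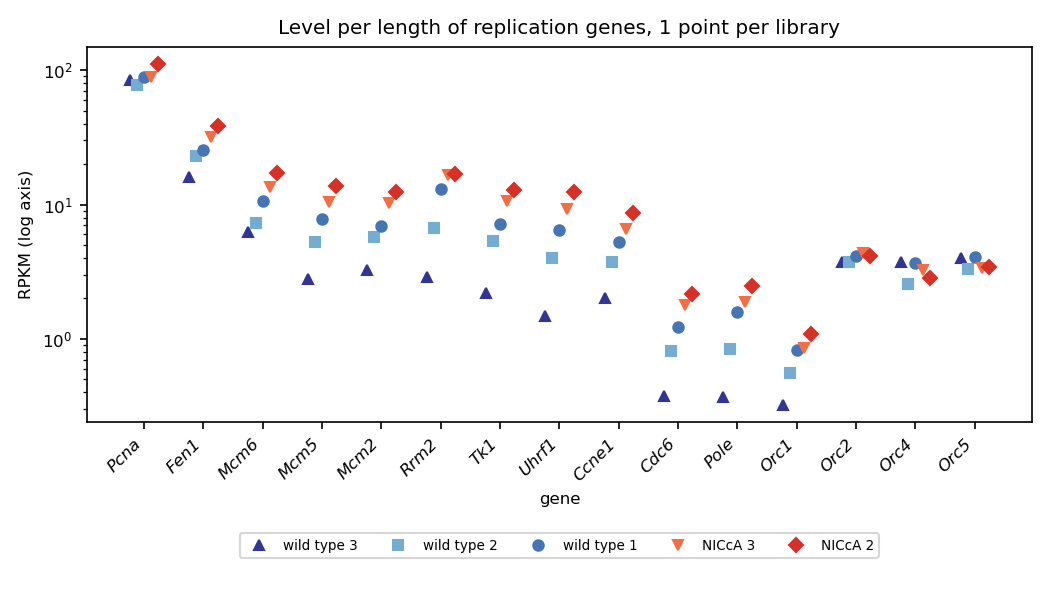
RPKM (log axis) of 15 of the replication genes, with 1 point per library. Pcna stands above the others at 77.3 to 111 RPKM, and Mcm2, Mcm5, Rrm2, Tk1, Uhrf1, Ccne1, Cdc6 and Pole lie progressively higher from wild type replicate 3 to NICcA replicate 2. Orc2, Orc4 and Orc5 spread less, at 3.71 to 4.39, 2.57 to 3.72 and 3.32 to 4.05 RPKM.

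Other lists of the pathway had median log2 fold changes from 0.14 to 0.66, beside 0.57 for the 49 genes. Of 29 other replication factors measured, 28 had a positive log2 fold change, with a median of 0.20. Higher without overlap were 12 of them, beside 18.3% of all genes tested. Timeless, which holds the fork together, was at 10.7, 6.73 and 4.23 CPM in wild type, against 23.01 and 13.9 CPM in NICcA (log2 fold change 1.35 with SE 0.40, adjusted p = 0.30), and Chtf18, of an alternative clamp loader, at 5.15, 2.91 and 1.65 CPM in wild type, against 8.91 and 8.25 CPM in NICcA (log2 fold change 1.41 with SE 0.44, adjusted p = 0.30). Both repeated the order of the helicase genes. Among 9 genes of chromatin assembly at the fork, all 9 were positive with a median of 0.54. Cdca7 and Chaf1a, the latter a subunit of the histone chaperone CAF-1, had log2 fold changes of 1.40 and 0.87. Of 17 further genes of nucleotide synthesis, 13 were positive (median 0.29). The 2 with the smallest p were Cad, the enzyme that starts pyrimidine synthesis, at 17.9, 16.1 and 11.97 CPM in wild type, against 31.9 and 27.02 CPM in NICcA (log2 fold change 0.94 with SE 0.19, adjusted p = 0.27), and Ctps, with a log2 fold change of 0.67. Of 16 genes of the S-phase checkpoint and fork repair, 15 were positive (median 0.66), and Rad54l, of recombination repair, had a log2 fold change of 0.89. Of 11 other E2F and retinoblastoma family genes, 9 were positive (median 0.14), with Tfdp1, the partner of E2F proteins, at 0.47 and the repressor E2f7 at 1.41. In these 5 lists 0 genes passed edgeR's adjustment, beside 0.03% of all genes tested called higher and 0% lower. DESeq2 called Timeless and Cad, both higher, beside 2.05% of all genes called higher and 1.9% lower.

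Genes of the cell cycle phases before and after S phase were set beside them. Mitosis genes had a positive log2 fold change in 20 of 20 cases, with a median of 0.87, and wild type replicate 3 was the lowest library for all 20. Set against the wild type average, their medians by library were -1.01, 0.04 and 0.85 (log2) in wild type replicates 3, 2 and 1 and 1.07 and 1.03 in NICcA replicates 3 and 2. The gap between wild type replicates 1 and 3 was 1.87 in the median, and the gap between the NICcA mean and wild type replicate 1 was 0.17. For the 49 replication genes these gaps were 0.82 and 0.22. Aurkb, a kinase of chromosome segregation, was at 21.3, 14.02 and 8.18 CPM in wild type, against 27.3 and 25.5 CPM in NICcA (log2 fold change 0.87 with SE 0.36, adjusted p = 0.35). The 7 genes of S and G2 cyclins, kinases and their regulators had a median of 0.78, all positive, with Cdc25a and Cdk2 at 0.44 and 0.43. Among 11 genes of G1, 9 were positive (median 0.56). The smallest p there were those of Myc, at 8.19, 8.68 and 8.18 CPM in wild type, against 13.5 and 11.8 CPM in NICcA (log2 fold change 0.60 with SE 0.13, adjusted p = 0.27), and of Ccnd1, the cyclin that starts the release of E2F, at 12.4, 8.98 and 2.60 CPM in wild type, against 43.6 and 34.99 CPM in NICcA (log2 fold change 2.30 with SE 0.57, adjusted p = 0.28). Ccnd1 had the order of the helicase genes, whereas Myc was level over the 3 wild type libraries. In these 3 lists 0 genes passed edgeR's adjustment, beside 0.03% of all genes tested called higher and 0% lower. DESeq2 called 2, Myc and Ccnd3, both higher, beside 2.05% of all genes called higher and 1.9% lower. Differences between lists were not tested.

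**Figure D4:**
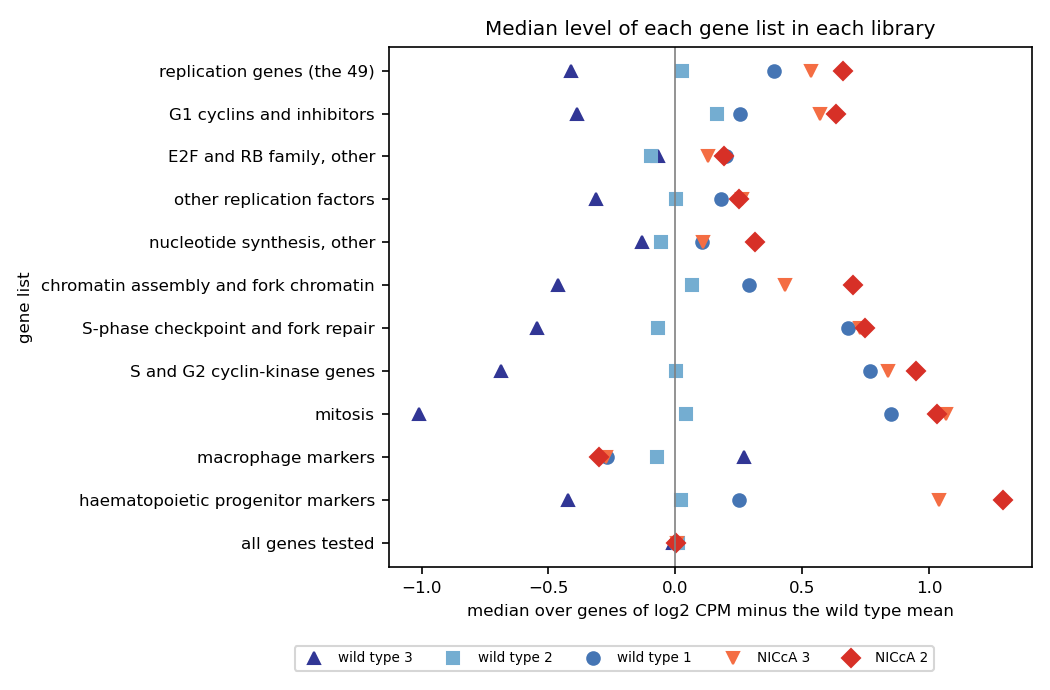
Median over the genes of each list of log2 CPM minus the wild type mean, with 1 point per library. In the lists of replication, S and G2, and mitosis wild type replicate 3 is lowest and the NICcA libraries are highest, macrophage markers run from -0.30 to 0.27 in the other direction, and all genes tested lie between -0.01 and 0.01.

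Markers of cell types were read in the same libraries. Of 10 macrophage markers measured, 4 had a positive log2 fold change, and the median was -0.25. Their summed RPKM was 10043, 11864 and 14524 in wild type replicates 1, 2 and 3 and 8690 and 9487 in NICcA replicates 2 and 3. Most of each sum was Lyz2, at 8836, 10513 and 12884 RPKM in wild type and 7490 and 8417 RPKM in NICcA. The sum therefore mainly follows that gene and not the list. Csf1r, the M-CSF receptor, was at 843, 883 and 1146 CPM in wild type, against 861 and 856 CPM in NICcA and Lyz2, the macrophage lysozyme, at 11521, 14308 and 17517 CPM in wild type, against 9302 and 10411 CPM in NICcA, so all 5 libraries carried the defining markers. The list was divided. Lyz2, Mpeg1, Cd68 and Mertk ran opposite to the replication genes inside wild type. In these 4, both NICcA libraries lay below all wild type libraries (18.5% of all genes tested). Their log2 fold changes were -0.55, -0.83, -0.65 and -0.57, with adjusted p of 0.34, 0.28, 0.32 and 0.34. Fcgr1, a receptor for IgG, was at 63.6, 48.3 and 61.5 CPM in wild type, against 140.4 and 77.5 CPM in NICcA (log2 fold change 0.91 with SE 0.26, adjusted p = 0.29), with both NICcA libraries above all wild type libraries. Itgam, Cd14 and Emr1 had positive log2 fold changes of 0.47, 0.26 and 0.16 with overlap, and Csf1r had -0.16 with overlap. DESeq2 called 2 of the 10 markers, Mpeg1 lower and Fcgr1 higher, beside 1.9% of all genes tested called lower and 2.05% higher.

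Of 9 haematopoietic progenitor markers 8 were tested, and all 8 log2 fold changes were positive. Their median was 1.23, and 6 genes were higher without overlap (18.3% of all genes tested), among them Gfi1 and Flt3 at low counts. Gfi1 had counts of 16, 19 and 19 in wild type and 90 and 39 in NICcA. Flt3 had 4, 28 and 28 against 31 and 55. The summed RPKM of the progenitor markers was 8.99, 7.54 and 4.74 in wild type and 15.3 and 14.2 in NICcA. Cd34 was at 12.8, 4.86 and 1.90 CPM in wild type, against 19.999 and 18.05 CPM in NICcA, Gata2 at 3.92, 1.45 and 0.622 CPM in wild type, against 9.81 and 5.45 CPM in NICcA and Myb at 1.13, 0.805 and 0.501 CPM in wild type, against 2.54 and 1.77 CPM in NICcA, and each of the 3 had the order of the helicase genes. Meis1 had that order too. Kit, the receptor of early progenitors, was at 9.80, 11.4 and 5.42 CPM in wild type, against 9.69 and 11.9 CPM in NICcA. It had another order, and so did Gfi1, Flt3 and Sox4. In Gfi1 and Flt3, wild type replicate 3 was the highest wild type library. Of the granulocyte markers, Mpo, an enzyme of granulocyte precursors, was near 0, at 0.017, 0.041 and 0.167 CPM in wild type and 0 and 0.166 CPM in NICcA. All 9 granulocyte markers tested had a positive log2 fold change, with a median of 0.60. Of them, 4 were higher without overlap (18.3% of all genes tested), among them Prtn3 and Ctsg at low counts. Prtn3 had counts of 11, 14 and 20 in wild type and 26 and 45 in NICcA. Ctsg had 5, 4 and 13 against 14 and 21. The summed RPKM of the granulocyte markers was 106, 68.7 and 132 in wild type and 140 and 170 in NICcA, so that wild type replicate 3 was the highest wild type library. Ngp, a protein of neutrophil granules, was at 17.1, 12.5 and 20.7 CPM in wild type, against 27.6 and 31.8 CPM in NICcA (log2 fold change 0.83 with SE 0.22, adjusted p = 0.28). It was the 1 marker of the list that DESeq2 called, beside 2.05% of all genes tested called higher and 1.9% lower. Stromal transcripts stood apart in 1 library: Col3a1 had counts of 419, 2 and 1 in wild type and 2 and 1 in NICcA, and Col1a2 had 311, 0 and 9 against 4 and 8. For dendritic cell markers (8 tested) the median was 0.89 (log2), beside a summed RPKM of 171, 209 and 197 in wild type and 281 and 175 in NICcA. Osteoclast markers (3 of 5 tested) had a median of 0.03 and a summed RPKM of 174, 249 and 393 in wild type and 177 and 154 in NICcA, and those of T and NK cells summed to at most 2.22 RPKM in each library. The part of these other cells in the values of the replication genes was not tested.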

How the data were processed

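Illumina sequencing of RNA gave 5 libraries, per the labels' protocols. The deposited table holds the authors' raw read count for 27457 RefSeq transcript rows of 20583 gene symbols, per the file headers. It also holds the authors' RPKM, deposited values scaled by the authors to transcript length and library size. Bowtie 0.12.2 and build mm8 stand, without a role, in the submitters' processing notes. For the counter and the strand setting, the sources used here give nothing. A second deposited table of RPKM was not used here.

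The count test was the quasi-likelihood test of edgeR 4.0.16 (R 4.3.3), by glmQLFit and glmQLFTest after filterByExpr and TMM scaling, with a single genotype term. Its p-values were adjusted by the Benjamini-Hochberg method over the 18267 rows (13341 genes) that were kept. SE is the size of the log2 fold change over the root of F. CPM values are counts per 1000000 of the TMM-scaled library, and log2 CPM used a prior count of 2. The 49 genes have 75 rows, which share reads. The largest difference of log2 fold change between rows of a gene was 0.26. Of 47 symbols turned into dates, 46 were renamed by accession. Levels of different genes are compared in RPKM only.

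The genes and lists were chosen with earlier results of these data known. All members are named. Values in every library are given for the 5 highest and 5 lowest log2 fold changes, the 8 smallest p, the 6 highest mean RPKM and 13 genes chosen by role, 29 genes in all, and other lists by their 2 smallest p, of which 1 is not reported here. Genes named beyond that were chosen after their values were seen. Alternatives were other scaling factors and filters, 1 row per gene, DESeq2 1.42.0, limma 3.58.1 (voom, and log2(RPKM + 1) or log2(RPKM + 0.1)), a block for replicate number, and fits that leave out 1 library. Groups not overlapping were also counted in RPKM, chosen after seeing the data. Figures used Python 3.11.15 and matplotlib 3.10.9.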

Additional observations from a re-analysis of the deposited data

How the results depend on the processing

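The number of the 49 replication genes with an adjusted p below 0.05 was 0 in all alternatives but DESeq2, which called 4, and was 0 with each library left out (range 0 to 0). Their median log2 fold change was positive in every alternative. It was 0.40 to 0.83 with 1 library left out, 0.84 with the replicate number as a term (the replicate block, adjusted p of at least 0.097 for each of the 49) and 0.54 to 0.72 in the other alternatives. Without scaling factors the median of all genes tested moved to 0.11, and that of the 49 to 0.66. The count of replication genes not overlapping and higher was 37 in RPKM, 32 to 36 under other scaling factors, filters or rows, and 32 to 43 with 1 library left out. It has no value under another test or the block. Over all genes, the 4 calls became 11 with no filter, 0 with the replicate block, 527 with DESeq2, 2 with limma-voom and 2 with limma on log2(RPKM + 1), and 0 to 44 with 1 library left out (0 when replicate 2 of either genotype was left out, 44 without NICcA replicate 3). The cause was not tested.

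The log2 fold change of the 29 genes given in full changed sign in 4 cases. Pcna was at -0.040 without NICcA replicate 2 and at up to 0.30 with another library left out. E2f2 was at -0.0021 with 1 row per gene, -0.22 when wild type replicate 3 was left out and -0.21 without NICcA replicate 3, and at up to 0.18 with another library left out. Without NICcA replicate 2 the adjusted p of the 49 genes was at least 0.90. Groups share the replicate numbers 2 and 3 only. The difference of NICcA replicate 2 from 3 correlated at 0.21 with that of wild type replicate 2 from 3 over all genes tested, and with 2 pairs this does not show a pairing. Counts under 100 per library, as for Orc1 in wild type replicate 3, limit the precision of the scarcest genes.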

Other observations

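Genes of the same complex did not always share the order of the libraries. Among the genes of the origin recognition complex and the clamp loader, Orc3, Orc4 and Orc5 had wild type replicate 3 as the highest library and Rfc1 had NICcA replicate 3 as the highest. The 4 nucleotide supply genes and the 6 helicase genes of the ring shared 1 order without exception. Of the 2 E-type cyclins, Ccne1 was highest in NICcA replicate 2 and Ccne2 in wild type replicate 1. Ccne2 had a log2 difference of 1.69 between wild type replicates 1 and 3 and -0.39 between the NICcA mean and wild type replicate 1. For Ccne1 these differences were 1.32 and 0.44.

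E2F words were found in windows of genes on both sides of the range. Orc3, at the lowest log2 fold change of the 49, had TTTCCCGC at 41 bases before the start, and E2f2 had a word after its start. No word of the 4 searched was in the windows at hand of Rrm2, Tk1, Mcm10 and Mcm2.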
